A study of Mus musculus with 27 samples.

Results

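The pituitary hormone genes Gh, Prl, Pomc, Cga, Tshb, Fshb, Pou1f1 and Ghrhr, were described in RNA-seq libraries of mouse cortex and hippocampus. They are the 8 rows, of 55487 genes counted, whose Ensembl identifiers carry these symbols in the GENCODE M21 annotation. They were selected on their counts in these libraries, Gh and Pomc above all, and their levels are therefore given as a description. A total of 5 of the 8 (Gh, Prl, Pomc, Cga and Tshb) had at least 10 counts in at least 4 libraries and entered the tests, whereas Fshb, Pou1f1 and Ghrhr did not.

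All mice were male C57Bl/6J wild types, 8 weeks old at the start, and received a 14-day infusion at 0.25 µl/h through a cannula in the right lateral ventricle. The infusion held PBS (5 mice), a human control IgG named pCtrl (5 mice), or α-IgLON5 (4 mice), a human autoantibody against the neuronal cell adhesion protein IgLON5. The study's methods give pCtrl as IgG from healthy serum, whereas the sample labels call it a non-reactive monoclonal IgG. No mouse carried a transgene, and tissue came from the hemisphere opposite the cannula. There were 14 cortex and 13 hippocampus libraries, and 13 of the 14 mice gave both (pCtrl mouse 11 gave cortex only). Libraries held 19385642 to 58550621 counts, with a median of 34061205. The labels call the cell type neurons, but markers of glia were abundant in every library (Mbp, a myelin protein, at 15085 counts or more), so the values are those of mixed tissue. All 5 genes of the cortex list were higher in cortex, and all 5 of the hippocampus list were higher in hippocampus. In bulk tissue, fewer cells of a type and less RNA per cell cannot be told apart.

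The anterior pituitary holds cell types that each release their own hormones. Somatotropes make growth hormone (Gh), lactotropes prolactin (Prl), corticotropes the precursor of ACTH (Pomc), and thyrotropes and gonadotropes make glycoprotein hormones that share the alpha subunit Cga and differ in their beta subunits, among them Tshb and Fshb. Pou1f1 is the transcription factor of somatotropes, lactotropes and thyrotropes, and Ghrhr is the receptor through which hypothalamic growth hormone-releasing hormone acts on somatotropes. Pomc is also made by neurons of the hypothalamic arcuate nucleus and by melanotropes of the intermediate lobe.

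Levels are given as CPM, the counts of a gene scaled to the size of its library after TMM normalization. Gh (ENSMUSG00000020713.6, GRCm38 chromosome 11, 106300271 to 106301865, minus strand) was detected in every library. In PBS cortices it was at 63.3 CPM in mouse 14, 8.54 in mouse 32, 1.28 in mouse 33, 6.49 in mouse 38 and 50.7 in mouse 74. In pCtrl cortices it was at 53.3 CPM in mouse 10, 76.0 in mouse 11, 2.78 in mouse 15, 17.3 in mouse 37 and 53.5 in mouse 75, and in α-IgLON5 cortices at 36.9 in mouse 8, 0.433 in mouse 9, 11.7 in mouse 16 and 6.54 in mouse 17. Each treatment held mice with high and mice with low Gh, and the 3 ranges overlapped.

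The hippocampus gave nearly the same order of mice. In PBS hippocampi Gh was at 67.1 CPM in mouse 14, 11.0 in mouse 32, 1.23 in mouse 33, 5.43 in mouse 38 and 2974 in mouse 74. In pCtrl hippocampi it was at 108 CPM in mouse 10, 2.52 in mouse 15, 16.2 in mouse 37 and 74.6 in mouse 75, and in α-IgLON5 hippocampi at 34.8 in mouse 8, 0.619 in mouse 9, 9.34 in mouse 16 and 7.64 in mouse 17. A single library, the hippocampus of PBS mouse 74, stood far above all others: it held 83.3% of all Gh counts of the series and was 27.4-fold above the next library, the hippocampus of pCtrl mouse 10.

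Prl (ENSMUSG00000021342.14, chromosome 13, 27057570 to 27065205, plus strand) was ordered like Gh at a lower level. Its cortex values ran from 0.0361 CPM in α-IgLON5 mouse 9 to 12.2 in pCtrl mouse 11. In hippocampus it was at 11.4 CPM in mouse 14, 2.16 in mouse 32, 0.205 in mouse 33, 1.07 in mouse 38 and 800 in mouse 74 of the PBS group. The pCtrl hippocampi held 14.0 CPM in mouse 10, 0.282 in mouse 15, 2.52 in mouse 37 and 9.99 in mouse 75, and the α-IgLON5 hippocampi 3.64 in mouse 8, 0.0563 in mouse 9, 1.13 in mouse 16 and 1.46 in mouse 17. The PBS mouse 74 hippocampus was 57.3-fold above the next library and held 90.5% of all Prl counts. An antisense gene, Gm47888, overlaps Prl, and the strand setting of the counting is not given in the sources used here.

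Pomc (ENSMUSG00000020660.6, chromosome 12, 3954951 to 3960642, plus strand) was ordered less closely like Gh. In PBS cortices it was at 21.8 CPM in mouse 14, 6.32 in mouse 32, 1.07 in mouse 33, 1.67 in mouse 38 and 7.83 in mouse 74, and in PBS hippocampi at 20.7, 11.4, 0.908, 1.63 and 56.5 CPM in the same mice. In pCtrl cortices it was at 21.9 CPM in mouse 10, 3.09 in mouse 11, 1.25 in mouse 15, 2.95 in mouse 37 and 17.9 in mouse 75, and in pCtrl hippocampi at 94.5 in mouse 10, 3.59 in mouse 15, 3.81 in mouse 37 and 30.2 in mouse 75. In α-IgLON5 mice 8, 9, 16 and 17 it was at 1.90, 0.902, 2.57 and 0.842 CPM in cortex and at 1.97, 0.844, 0.949 and 1.03 CPM in hippocampus. The highest library was the hippocampus of pCtrl mouse 10, which held 35.4% of all Pomc counts and was 1.67-fold above the PBS mouse 74 hippocampus.

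**Figure D1:**
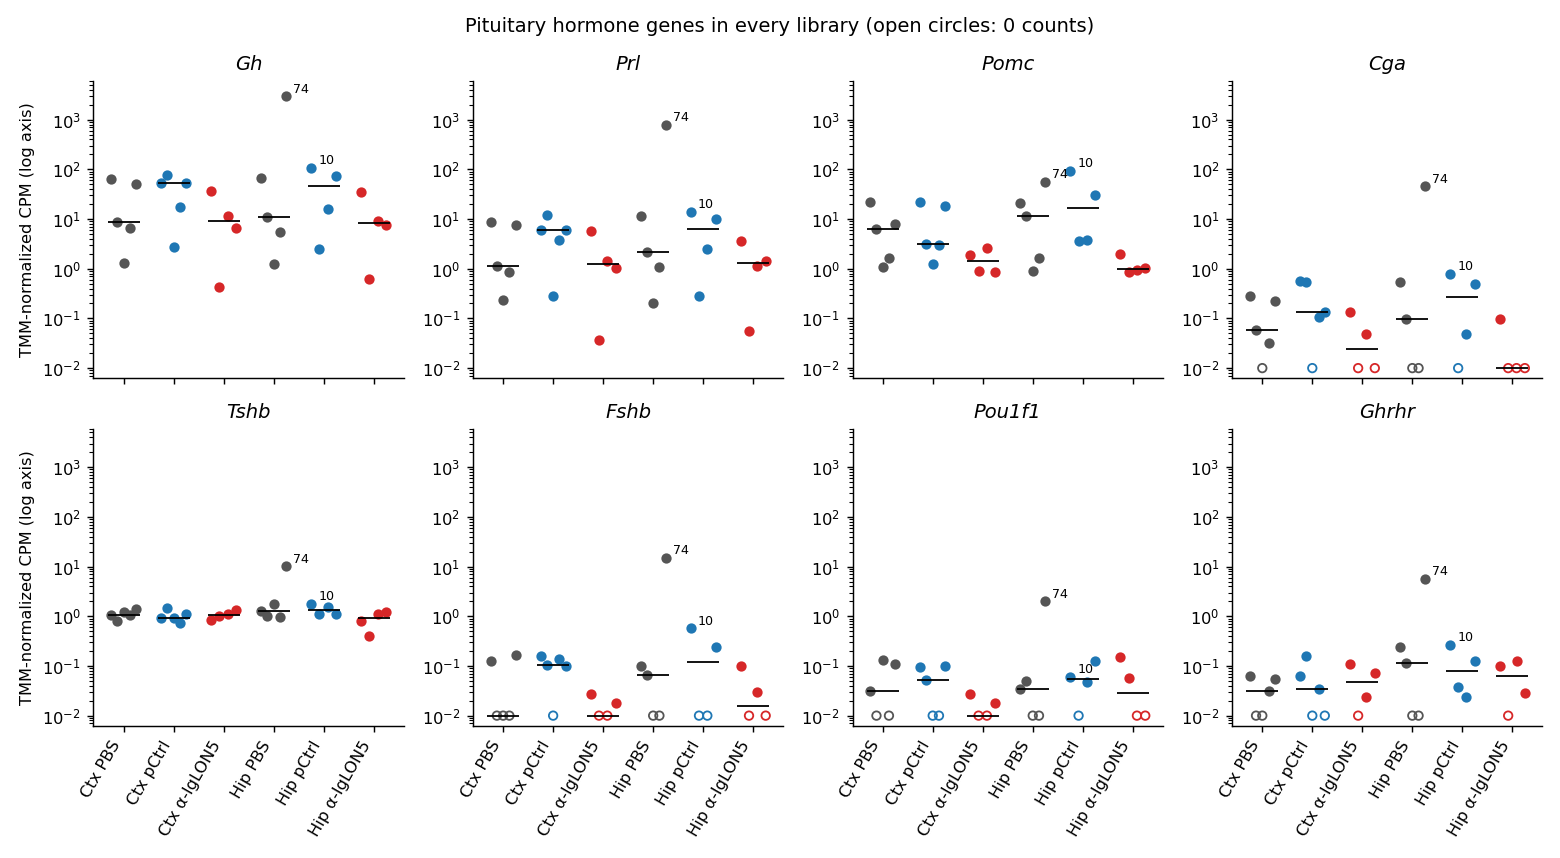
TMM-normalized CPM of the 8 genes on log axes, 1 point per library, by tissue (Ctx, cortex; Hip, hippocampus) and treatment. Lines are group medians, open circles are libraries with 0 counts, and numbers mark the hippocampi of PBS mouse 74 and pCtrl mouse 10. The mouse 74 hippocampus lies above all other libraries for each gene except Pomc, and Tshb varies little elsewhere.

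Cga (ENSMUSG00000028298.10, chromosome 4, 34893779 to 34907370, plus strand) had 1954 counts in the PBS mouse 74 hippocampus (46.0 CPM) and 39 counts in the pCtrl mouse 10 hippocampus (0.797 CPM). The other 25 libraries had at most 20 counts, and 10 libraries were at 0, where 3 counts are the upper limit that a count of 0 allows (counting error only). Fshb (ENSMUSG00000027120.6, chromosome 2, 107056140 to 107059656, minus strand) had 633 counts in the mouse 74 hippocampus, 28 in the mouse 10 hippocampus and at most 10 elsewhere, with 12 libraries at 0. This 1 library held 93.0% of all Cga and 89.5% of all Fshb counts. The luteinizing hormone beta gene, Lhb, had 0 counts in all 27 libraries. Lhb was not searched for overlapping genes, and whether its reads could be counted was not tested.

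Pou1f1 (ENSMUSG00000004842.18, chromosome 16, 65520511 to 65535005, plus strand) had 85 counts in the PBS mouse 74 hippocampus and at most 5 in any other library. Ghrhr (ENSMUSG00000004654.6, chromosome 6, 55376295 to 55388530, plus strand) had 240 counts there, 13 in the pCtrl mouse 10 hippocampus and at most 7 elsewhere. The counts of both genes outside these libraries were too low to order the mice.

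Tshb (ENSMUSG00000027857.10, chromosome 3, 102775465 to 102782718, minus strand) differed from the other hormone genes. It was at 10.2 CPM (433 counts) in the PBS mouse 74 hippocampus, which was 5.70-fold above the next library, and at 0.394 to 1.79 CPM in the other 26 libraries. Mouse 9, the lowest for Gh in both tissues, had 1.01 CPM of Tshb in cortex, close to the 1.06 CPM of mouse 14, the highest for cortex Gh among the 13 mice with both tissues, and mouse 11, the highest of all cortices for Gh, had 1.49 CPM. In hippocampus mouse 9 was also the lowest of all libraries for Tshb, at 0.394 CPM (7 counts). Tshb overlaps Tspan2 on the other strand, a tetraspanin gene of oligodendrocytes that had 1040 to 6362 counts in every library. Reads from the 2 genes cannot be told apart without strand, and how far Tspan2 contributed to the Tshb counts was not tested.

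Per kilobase of exon, so that genes can be compared, the PBS mouse 74 hippocampus held 3450 CPM of Gh, 568 of Prl, 48.2 of Cga, 42.9 of Pomc, 9.31 of Fshb, 2.24 of Tshb, 1.62 of Ghrhr and 0.514 of Pou1f1. Other pituitary genes were highest in the same library. From a list of 16 pituitary hormones, lineage factors and receptors outside the 8 genes, Gnrhr, the gonadotropin-releasing hormone receptor (64 counts there, at most 4 elsewhere), was more than 10-fold above the next library. The corticotrope and melanotrope factor Tbx19 (42 counts, 8 in the mouse 10 hippocampus, at most 4 elsewhere), Six6 (50 and at most 5) and Lhx3 (97 and at most 20) followed. Of 15932 genes with at least 30 counts in this library, 26 were at least 3-fold above each other library, and 10 were at least 10-fold above, 6 of them among the 8 genes described here. These 26 also held the epithelial genes Epcam, Krt8 and Krt18, and Myo15. Other libraries held such genes too: 19 in the hippocampus of α-IgLON5 mouse 8 (3 at least 10-fold above), 10 in that of mouse 17 (4) and 9 in that of mouse 9 (0), and 0 to 6 in each of the others. The same count was 3 genes of 16353 in the mouse 10 hippocampus (Gbx2, Shox2 and Tcf7l2, transcription factors of the thalamus), and the summed level of a 6-gene thalamus list was highest there, at 82.8 CPM against 35.0 to 79.9 in the other libraries.

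**Figure D2:**
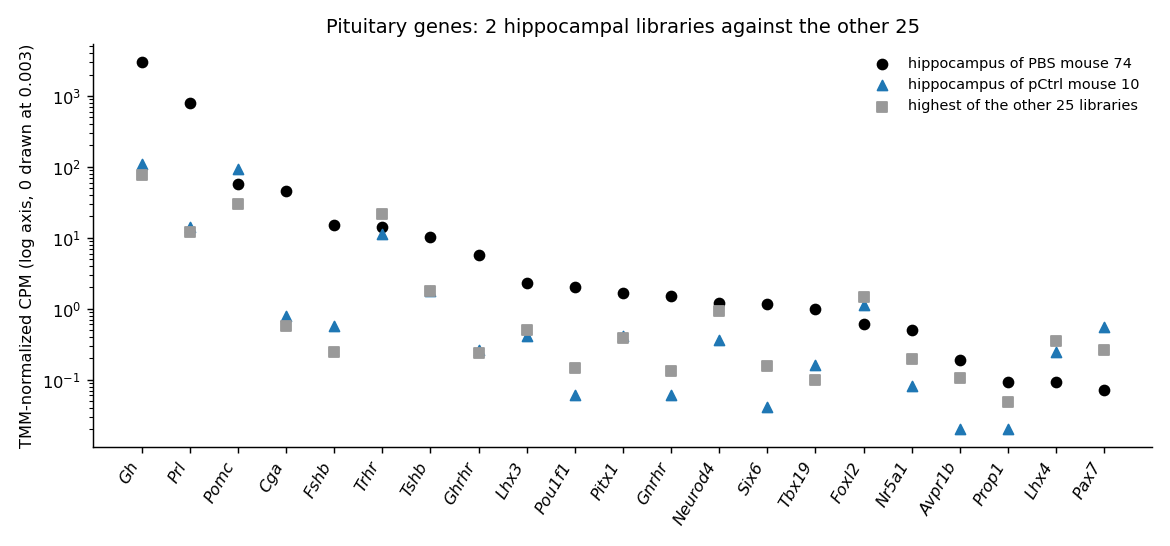
TMM-normalized CPM (log axis) of pituitary genes in the hippocampus of PBS mouse 74, the hippocampus of pCtrl mouse 10 and the highest of the other 25 libraries. Gh, Prl, Cga, Fshb, Ghrhr, Pou1f1 and Gnrhr stand more than 10-fold apart in mouse 74, whereas Trhr, Foxl2, Lhx4 and Pax7 do not stand out there.

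Brain-expressed members of that list did not follow. Trhr, the thyrotropin-releasing hormone receptor, had 114 to 1094 counts in every library and was highest in the hippocampus of PBS mouse 33, and Foxl2 had 6 to 59 counts and was at 26 in the mouse 74 hippocampus. From a hypothalamus list of 12 genes, the summed level was 2.30 to 9.39 CPM, the highest being the hippocampus of PBS mouse 32, which held 297 counts of Avp and 43 of Oxt, the vasopressin and oxytocin genes. Trh, the thyrotropin-releasing hormone gene of that list, was highest in the PBS mouse 74 hippocampus (203 counts, 4.78 CPM), 1.03-fold above the cortex of α-IgLON5 mouse 9, at a median of 0.593 CPM. Agrp, a gene of arcuate neurons, was flat, at 13 to 50 counts, and Kiss1 was at 0 in all libraries. Ghrh and Pmch had at most 7 counts in any library. The part of arcuate neurons in the Pomc counts was not tested beyond these levels.

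Relative to Gh, Pomc varied more between libraries than Prl. Prl was at 14.1 counts per 100 Gh counts in the median library. In the 23 libraries with at least 100 Gh counts it lay between 10.2 and 26.9, the latter in the PBS mouse 74 hippocampus, although their Gh counts ran from 118 to 126375. Pomc per 100 Gh counts ranged in these 23 libraries from 1.90 in the mouse 74 hippocampus to 143 in the hippocampus of pCtrl mouse 15. Within a mouse it was often close in both tissues: 5.15 in cortex and 5.66 in hippocampus of mouse 8, 12.9 and 13.5 in mouse 17, 34.5 and 30.8 in mouse 14, 25.7 and 30.1 in mouse 38, and 33.4 and 40.5 in mouse 75. It was 17.0 and 23.5 in mouse 37 and 74.0 and 103 in mouse 32. The gap was wider in mouse 74 (15.5 and 1.90), mouse 15 (44.9 and 143), mouse 16 (22 and 10.2) and mouse 10 (41.1 and 87.1), and mice 9 and 33 had under 100 Gh counts in both tissues. The 26 libraries other than the mouse 74 hippocampus together held 0.142 Pou1f1, 0.245 Ghrhr, 0.292 Fshb and 0.581 Cga counts per 100 Gh counts, against 0.0673, 0.19, 0.501 and 1.55 in that library. These values rest on pooled counts of 36, 62, 74 and 147 in the 26 libraries. Pomc (42.2 against 1.9), Tshb (4.2 against 0.343) and Trhr (42.7 against 0.47) were far higher relative to Gh in the 26 libraries. Of the pituitary list, Foxl2 (2.81 against 0.0206), Neurod4 (1.28 against 0.0404), Lhx3 (0.743 against 0.0768), Pitx1 (0.328 against 0.0554) and Tbx19 (0.17 against 0.0332) were also higher there.

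**Figure D3:**
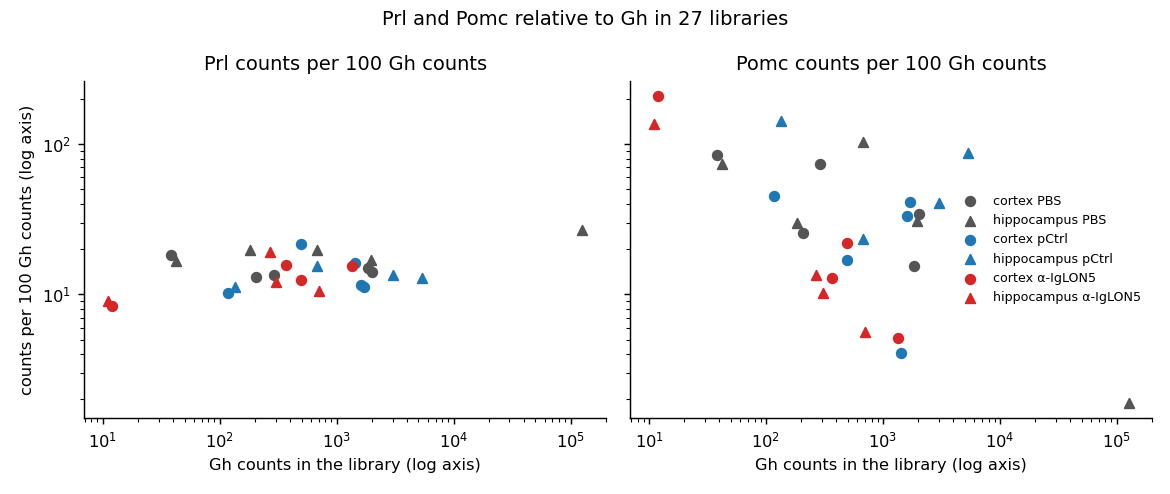
Prl (left) and Pomc (right) counts per 100 Gh counts against the Gh counts of the library, both on log axes, for 27 libraries marked by tissue and treatment. Prl stays between 8.33 and 26.9 over all libraries, and Pomc spreads from 1.90 to 208.

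Promoter sequences are shown for Prl, for its lineage factor Pou1f1 and for Pomc, as a description. Whether they bear on the counts per Gh count was not tested. They are the 250 bases before the RefSeq start (GRCm38.p6): Prl at chr13:27057320-27057569 (plus strand), Pou1f1 at chr16:65520262-65520511 (plus strand, the first of 2 starts in the table) and Pomc at chr12:3954695-3954944 (plus strand). Capitals mark ATGNATA or its other strand, TATNCAT, a core that fits POU1F1 binding sites.
Prl: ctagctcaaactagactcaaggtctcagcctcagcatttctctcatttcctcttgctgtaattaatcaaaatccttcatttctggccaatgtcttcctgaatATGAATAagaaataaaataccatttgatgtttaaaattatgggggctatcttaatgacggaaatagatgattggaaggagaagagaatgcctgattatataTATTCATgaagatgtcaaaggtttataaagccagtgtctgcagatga
Pou1f1: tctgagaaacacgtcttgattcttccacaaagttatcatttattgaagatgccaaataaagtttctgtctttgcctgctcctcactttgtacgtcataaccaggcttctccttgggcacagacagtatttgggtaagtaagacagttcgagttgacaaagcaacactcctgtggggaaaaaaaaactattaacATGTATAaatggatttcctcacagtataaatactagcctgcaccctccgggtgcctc
Pomc: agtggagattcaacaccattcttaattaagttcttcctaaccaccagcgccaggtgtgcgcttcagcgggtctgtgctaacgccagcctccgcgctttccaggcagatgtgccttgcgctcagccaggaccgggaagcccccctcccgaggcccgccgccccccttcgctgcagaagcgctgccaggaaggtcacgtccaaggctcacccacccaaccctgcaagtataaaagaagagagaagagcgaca
Prl held 2 matches and this start of Pou1f1 held 1, and the windows of Pomc, Cga, Tshb, Fshb and the other start of Pou1f1 held 0. The core occurs in 7.92% of all 32851 promoters in the table. A match is a description of letters and no site. Gh and Ghrhr promoters were not used here.

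Both tissues of each mouse were then compared over the 13 mice that gave both. This comparison was added after seeing the data, and the genes were selected on their counts in these libraries. The correlations and their p-values are therefore a description and no test of these genes. The hippocampus held 0.799 to 2.04 times the cortex level of Gh in 12 mice and 58.7 times in mouse 74. The rank of the mouse was the same in both tissues for 7 of the 13 mice and differed by at most 3 places. Over the 13 mice, Pearson's r of log2 CPM was 0.87 for Gh (adjusted p = 0.00699) and Spearman's rho was 0.94 (adjusted p = 0.00676), both from 100000 permutations of the mice with adjustment over all 20271 genes tested. Prl gave r = 0.83 (adjusted p = 0.0138) and rho = 0.96 (adjusted p = 0.00676), and Pomc gave r = 0.91 (adjusted p = 0.00732) and rho = 0.88 (adjusted p = 0.0286) in the same permutation test. Cga gave r = 0.73 (adjusted p = 0.0459) and rho = 0.96 (adjusted p = 0.00676, permutation), although most of its counts were low. Tshb was lower, at r = 0.46 (adjusted p = 0.393) and rho = 0.42 (adjusted p = 0.513, permutation).

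A positive correlation with an adjusted p under 0.05 (permutation) was found for 5.62% of all genes by r and for 1.41% by rho. The median r over all genes was 0.22. An r as high as that of Gh was reached by 2.21% of genes, and a rho as high by 0.148%. Without the 2 mice farthest from the median cortex level, r was 0.82 for Gh, 0.81 for Prl, 0.88 for Pomc, 0.74 for Cga and 0.25 for Tshb. Without mouse 74, r was 0.99 for Gh, 0.96 for Prl, 0.93 for Pomc, 0.89 for Cga and 0.06 for Tshb. With the mean of each treatment taken off, r stayed at 0.87 for Gh, 0.84 for Prl and 0.87 for Pomc. Whether the 2 dissections of a mouse share tissue, tools or handling is not given in the sources used here, and what the levels come from was not tested.

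**Figure D4:**
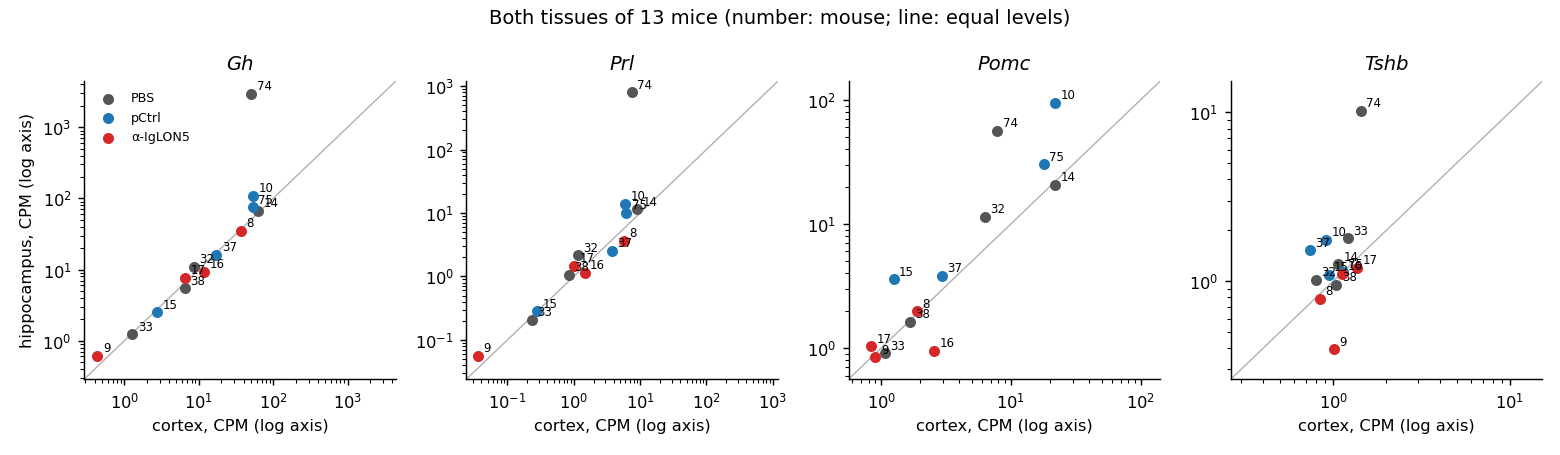
Cortex (x axis) against hippocampus (y axis) TMM-normalized CPM of Gh, Prl, Pomc and Tshb in the 13 mice with both tissues, on log axes, colored by treatment and numbered by mouse. The line marks equal levels: Gh and Prl lie along it except in mouse 74, and Tshb forms 1 cloud with mouse 74 above it.

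No hormone gene was called between the tissues in the fit across all genes. That fit took both tissues of a mouse as independent libraries, here and in the interaction below. Its SEs are therefore not the spread of differences within a mouse, and with the mouse as a block 0 were called too. Averaged over the treatments, hippocampus minus cortex was 1.59 ± 0.856 (SE) on the log2 scale for Gh (adjusted p = 0.14), 1.78 ± 0.981 for Prl (adjusted p = 0.15) and 0.88 ± 0.661 for Pomc (adjusted p = 0.302) by edgeR's quasi-likelihood test. In this comparison 4.95% of all genes were called (fold change beyond 2, Benjamini-Hochberg p below 0.05), and 0 of the 5 hormone genes tested, with 0 at an unadjusted p under 0.05 (49.8% of all genes). In this and each other comparison DESeq2 gave no adjusted p for Gh, Prl and Cga, so it could call only Pomc and Tshb, and here it called neither. Without the PBS mouse 74 hippocampus the Gh difference was -0.04, the Prl difference -0.06 and the Cga difference -0.12, against 1.88 with it.

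Treatment comparisons asked whether the antibody infusion changed these genes. Because the genes were picked with such results in view, the counts below describe the libraries. α-IgLON5 hippocampi held less Pomc than pCtrl hippocampi, and their values did not overlap (0.844 to 1.97 against 3.59 to 94.5 CPM). Pomc was the 1 hormone gene called among 5 tested, with a log2 fold change of -4.81 ± 1.3 (SE), where 2.45% of all genes were called and 0.237% were called as lower. Groups with all values lower occurred in 5.01% of all genes. The Pomc fold rested in part on pCtrl mouse 10: without that hippocampus it was -3.41 and no longer called. Nor was it called without α-IgLON5 mouse 8 (-5.11), mouse 9 (-4.72) or mouse 17 (-4.74), in a fit of the 2 groups alone, and among mice 8 to 17 (-5.38), the numbers that hold all α-IgLON5 mice. Gh, Prl and Tshb were not called, at log2 fold changes of -1.96, -2.09 and -0.59, nor was Cga, which had at most 2 counts in the α-IgLON5 hippocampi.

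The pCtrl hippocampi highest in Pomc, those of mice 10 and 75, were also the highest in Gh. In the other tissue of the same animals, α-IgLON5 cortices held 0.842 to 2.57 CPM and pCtrl cortices 1.25 to 21.9 CPM, which overlapped. The cortex log2 fold change of Pomc was -2.60 ± 1.16 (adjusted p = 0.264), of Gh -1.52 ± 1.51 (adjusted p = 0.694) and of Prl -1.37 ± 1.65 (adjusted p = 0.756), by edgeR. Here 2.16% of all genes and 0 of the 5 hormone genes were called, 1 of them at an unadjusted p under 0.05 (15.4% of all genes), and DESeq2 called neither Pomc nor Tshb. The test of the difference between tissues gave a Pomc interaction of -2.21 ± 1.71 (adjusted p = 0.69), with 0 of 5 hormone genes and 0% of all genes called, and 0 of the 5 at an unadjusted p under 0.05 (10.6% of all genes). DESeq2 gave no adjusted p for any of the 5 in this test.

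Against PBS, the α-IgLON5 hippocampi had lower Prl (log2 fold change -6.71 ± 1.83, adjusted p = 0.0307) by edgeR. Cga was also called (adjusted p = 0.0217, edgeR). It had at most 5 counts in any α-IgLON5 library and passed the count filter only through PBS and pCtrl libraries. Its call is therefore a description, and its fold change is not an estimate of size. Without the PBS mouse 74 hippocampus Cga was not called (adjusted p = 0.581, edgeR). Prl and Cga were 2 of 5 hormone genes, where 2.67% of all genes were called and 0.109% as lower. Gh (-5.56 ± 1.79, adjusted p = 0.0824), Pomc (-3.96 ± 1.27, adjusted p = 0.0809) and Tshb (-1.75 ± 0.533, adjusted p = 0.0636) were not called by edgeR. All 5 were at an unadjusted p under 0.05 (15.3% of all genes), DESeq2 called Pomc and Tshb, and a fit of the 2 groups alone called 0. Leaving out the single PBS mouse 74 hippocampus changed Prl to -1.22 (adjusted p = 0.731), Gh to -0.70 (adjusted p = 0.872), Tshb to -0.46 (adjusted p = 0.493) and Pomc to -2.88 (adjusted p = 0.256), and 0 of 5 were called. The values of the other PBS hippocampi overlapped those of α-IgLON5 for each of the 5 genes. Without PBS mouse 38 all 5 were called, and without any 1 α-IgLON5 hippocampus 0 were.

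Between pCtrl and PBS hippocampi 0 of 5 hormone genes were called beside 0.0641% of all genes, with 4 of the 5 at an unadjusted p under 0.05 (14% of all genes), and DESeq2 called neither Pomc nor Tshb. The fold changes of Gh, Prl, Cga and Tshb turned sign with the mouse 74 hippocampus: Gh was -3.60 ± 1.58 with it and 1.27 without, Prl -4.61 ± 1.53 and 0.88, Cga -4.81 ± 1.43 and 1.16, and Tshb -1.15 ± 0.489 and 0.14. That of Pomc did not turn (0.85 with it and 1.93 without) but was -0.55 without the pCtrl mouse 10 hippocampus. In cortex, 0 of 5 were called for α-IgLON5 against PBS (2.24% of all genes) and for pCtrl against PBS (0% of all genes), in both with 0 at an unadjusted p under 0.05 (9.26% and 8.14% of all genes). DESeq2 called neither Pomc nor Tshb in the first and gave no adjusted p for any of the 5 in the second. The treatment comparisons of a tissue share their control libraries and are not independent of each other.

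**Figure D5:**
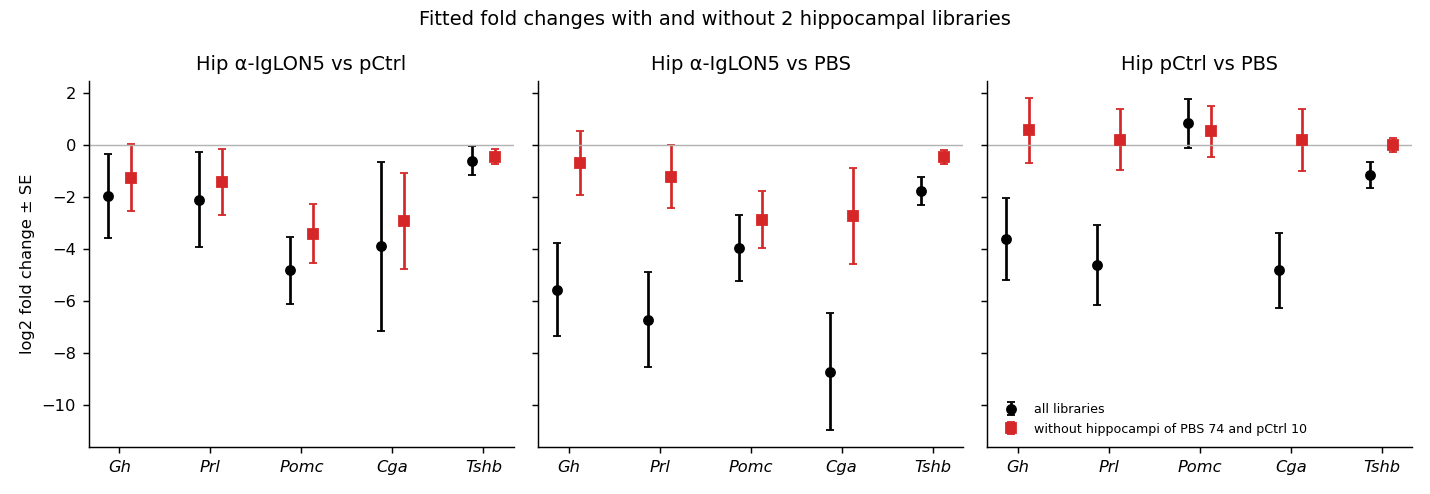
Fitted log2 fold changes ± SE of the 5 hormone genes tested in the 3 hippocampal comparisons, with all libraries (black) and without the hippocampi of PBS mouse 74 and pCtrl mouse 10 (red). The fold changes against PBS shrink toward 0 without the 2 libraries, and Pomc stays lowest in the comparison with pCtrl.

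Genes that process or receive these hormones were measured beside them. Of 5 prohormone processing genes (Pcsk1, Pcsk2, Cpe, Pam and Scg5) and of 11 receptors and targets of the hormones (9 tested), 0 were called in any of the 3 hippocampal and 3 cortical treatment comparisons, and DESeq2 called 0 in the 3 hippocampal ones. In hippocampus, α-IgLON5 against pCtrl, 4 of the 5 processing genes and 4 of the 9 receptors and targets had an unadjusted p under 0.05, where 21.9% of all genes did. The median log2 fold changes of the lists were -0.24 and -0.22, against 0 over all genes, and Mc4r, a melanocortin receptor among those 4, was at 0.63. Between tissues, Prlr, the prolactin receptor, was higher in hippocampus (1.36 ± 0.149, adjusted p = 2.66e-08) and Pcsk1, a convertase that cleaves the Pomc precursor, was lower (-1.17 ± 0.167, adjusted p = 2.15e-06) by edgeR. Prlr was highest in the PBS mouse 74 hippocampus, at 6.68 CPM, only 1.25-fold above the next library. Of the hypothalamus list, Avp was lower in α-IgLON5 than in PBS hippocampi (-3.68 ± 0.907, adjusted p = 0.0137), with 297 counts in PBS mouse 32 and 1 to 16 in the others, and it was not called without the hippocampus of PBS mouse 32, PBS mouse 74, pCtrl mouse 10 or α-IgLON5 mouse 17.

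Genes outside the 8 whose log2 CPM was most like that of Gh over the 27 libraries were Prex2 (r = 0.74), Myo15 (0.72), Gstm1 (0.71), Gnb3 (0.69), Gm36757 (0.67), Ndrg2 (0.64), Gm45767 (0.62) and E2f5 (0.62). These were weaker than Prl (0.99), Cga (0.89) and Pomc (0.79) but above Tshb (0.60, and 0.28 without the PBS mouse 74 hippocampus). The points share 1 library that stands apart in Gh. Myo15 and Gnb3, at a median of 0.429 and 0.251 CPM, had their highest values, 6.21 and 2.71 CPM, in that library. Most like Pomc were Diras2 (0.70), Sox1 (0.68), Qpct (0.68), Gm36757 (0.64), Gm48226 (0.63), Fam174a (0.63), Inmt (0.62) and Jam2 (0.62). By rank, 3 of each 8 remained among the first 8, and without the highest library 2 of the Gh genes and 5 of the Pomc genes did.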

How the data were processed

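The authors deposited 1 table of raw counts per gene and library, whole numbers with no normalization, from mRNA libraries made with a stranded kit and sequenced in paired-end mode. Per the submitters' processing notes the reads were aligned with STAR (listed as version 1.4.0), and the study's methods give GRCm38. The counting program, its strand setting and the annotation release are not given in the sources used here. All 27 libraries were used, and 0 columns stayed unassigned. Libraries were grouped by tissue and treatment from their labels, and both tissues of a mouse share its number. No library repeated another of its group, since chi-square over its degrees of freedom was at least 4.44 in the 48 pairs.

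Symbols, positions and exon lengths came from GENCODE M21, which named 55227 of 55487 identifiers. The 20271 genes that reached 10 counts in 4 or more libraries were fitted with edgeR 4.0.16 in R 4.3.3 (TMM, quasi-likelihood test, 6 groups, no covariate), with Benjamini-Hochberg adjustment over all of them. Called genes had a fold change beyond 2 with an adjusted p below 0.05 (for the interaction, the p alone). Log2 CPM used a prior count of 1. The script was tested on simulated data. Correlations over mice used 100000 permutations. The 8 genes, the gene lists and the tests were chosen with earlier results of these data known. All 8 genes are named, with list genes that were called or stood out and the 8 genes most like Gh and Pomc. 1 gene of the pituitary list is not reported here. The mouse pairs the tissues: deviations from group means correlated between them at -0.052 to 0.459 (median 0.192, 8 of 13 mice over 0.1). The alternatives were DESeq2 1.42.0, DESeq2's size factors (RLE), 2 other count filters, no fold threshold, the 2 groups alone, mice 8 to 17 alone, the mouse as a block, CPM without TMM, and each library left out in turn. Leaving out the hippocampi of PBS mouse 74 and pCtrl mouse 10 together, and the correlation between tissues, were added after seeing the data. p-values of the fits measure the spread between libraries within the 6 groups, 1 library per mouse and tissue. Both tissues of a mouse enter the main fit as independent libraries, so its tissue and interaction p-values do not use the pairing.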

Additional observations from a re-analysis of the deposited data

Results flagged for a closer look

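A library stood apart from its group, by the gap to its nearest neighbor over the range of the group, in 8 of the 40 sets of 4 or 5 libraries with over 3 counts of a hormone gene. Chance flags about 1 in 20 independent sets, but these genes were selected on their counts in these libraries and 7 of the 8 sets share 1 library, so the 2 rates are not comparable. The hippocampus of PBS mouse 74 did so for 7 genes: Gh at 2974 CPM, Prl at 800, Cga at 46.0, Fshb at 14.9, Tshb at 10.2, Ghrhr at 5.65 and Pou1f1 at 2.0 CPM. Its cortex did not stand apart, with 50.7 CPM of Gh and 7.56 CPM of Prl. The eighth set was Pomc in α-IgLON5 hippocampi, where mouse 8 was highest at 1.97 CPM and the other three lay between 0.844 and 1.03 CPM.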

How the results depend on the processing

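In α-IgLON5 against pCtrl hippocampi the 1 hormone gene called became 0 in a fit of the 2 groups alone, among mice 8 to 17, and without the hippocampi of PBS mouse 74 and pCtrl mouse 10 (0 to 1 with 1 library left out). The cause was not tested. Against PBS the 2 called became 4 with no count filter, 0 with 10 counts in every library, 0 in the 2 groups alone and 0 without those 2 hippocampi (0 to 5 with 1 library left out). DESeq2 also called 2 there, but Pomc and Tshb. It gave no adjusted p for Gh, Prl and Cga in any of the comparisons, and none for any of the 5 in pCtrl against PBS cortices and in the interaction, so its counts of 0 say nothing of those genes. In pCtrl against PBS hippocampi the range with 1 library left out was 0 to 1. The counts of the cortex, tissue and interaction comparisons kept 0 under the alternatives run, with the mouse as a replicate block 0 and 0, and the block changed no call. Without the 2 hippocampi, the pCtrl against PBS log2 fold change was 0.57 for Gh, 0.22 for Prl and 0.21 for Cga, and the tissue difference was -0.27, -0.28 and -0.44 for these genes. With 1 library left out, the pCtrl against PBS fold changes ran from -4.31 to 1.27 for Gh, -5.30 to 0.88 for Prl, -0.55 to 1.93 for Pomc, -5.79 to 1.16 for Cga and -1.39 to 0.14 for Tshb, and the tissue differences from -0.04 to 1.96 for Gh, -0.06 to 2.17 for Prl and -0.12 to 2.30 for Cga. Called genes of the other lists went in α-IgLON5 against pCtrl hippocampi from 0 to 4 with no fold threshold (0 to 2 with 1 library left out), against PBS from 1 to 2 with DESeq2, 0 with 10 counts in every library, 4 with no fold threshold, 0 in the 2 groups alone and 2 without the 2 hippocampi (0 to 3), and in pCtrl against PBS from 0 to 1 with DESeq2 and 2 with no count filter (0 to 2). Without TMM the mouse 74 hippocampus was at 3020 CPM of Gh and 812 of Prl. Depth limits Fshb, Pou1f1 and Ghrhr, whose counts outside that library are too few to compare groups.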
